A study of Pavo cristatus and Gallus gallus and Meleagris gallopavo with 54 samples.

Results

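Turkey embryonic fibroblasts grown in DMEM high glucose were compared with cells of the same embryos grown in DMEM/F12, over all 10024 transcription start site (TSS) peaks measured by CAGE in this bird. The comparison used 6 of the 54 libraries of the series, taken by the medium and the embryo number on their labels and by no measured value. The series covers fibroblasts of 7 bird species and was built to study expression of the Z chromosome in male and female cells, with both media included to control for expression that depends on the medium.

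Cells came from the trunk of turkey (Meleagris gallopavo) embryos at the equivalent of chicken Hamburger-Hamilton stage 36, after removal of head, limbs, skin and internal organs, and were trypsinized, plated and harvested at passage 5. The 3 libraries of the F12 group (DMEM/F12 with 10% fetal bovine serum) and the 3 of the high glucose group (DMEM with 10% fetal bovine serum) came from embryos 02, 03 and 04, each present once in each medium. Embryos 02 and 03 were labelled male and embryo 04 female, so that sex and embryo cannot be told apart. The labels name no strain, transgene or drug for any of the 6 cultures. The title of the high glucose library of embryo 03 marks it as a second one, and the labels do not say what the first was. The cells are a mixed trunk culture selected by growth and not by a marker. Of the fibroblast markers considered (COL1A1, COL1A2, COL3A1, DCN, LUM, PDGFRA and PDGFRB), none carries a name in the turkey tables used here, so the cell type on the labels could not be checked against them.

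A gene is read from its TSS, where RNA polymerase II starts the transcript and the 5′ end receives a cap. CAGE captures and sequences that capped end, so each peak gives the activity of a start site, and a gene can have several. DMEM high glucose is a basal medium rich in glucose and amino acids. DMEM/F12 blends DMEM with Ham's F12, which holds less glucose and adds trace metals, lipids and further vitamins and amino acids. The groups thus differ in many components besides glucose, and the effect of any single component cannot be told apart.

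Values are TPM, the tags of a peak scaled to the mapped tags of its library (tags per 1e6 tags). The smallest step between values recovered library depths of 10899829 to 11689681 tags, so that 1 tag was worth 0.0855 to 0.0917 TPM. Peaks held 92.4% to 92.9% of the tags, and the median peak had 30.2 to 31.3 TPM in each of the 6 libraries. Of the sum of squares of log2(TPM + 1) over all peaks, embryo accounted for 54.8% (2 degrees of freedom), medium for 27.9% (1 degree of freedom) and the rest for 17.4%. The first principal component held 38.7% of the variance and parted the female embryo from the male ones, and none of the first 5 components parted the media. By its number on the labels each embryo gave 1 culture per medium, so that an embryo is 1 pair and n = 3 below.

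Each peak was tested with limma on log2(TPM + 1), with embryo as a block, and called where the p-value adjusted by Benjamini-Hochberg over all 10024 peaks was under 0.05. Differences are given throughout as high glucose minus F12 on this log2 scale, which understates the change of peaks near 0.

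High glucose medium was associated with a higher level at 158 peaks (1.58% of those tested) and a lower level at 76 (0.758%), together 234 peaks (2.33%) assigned to 225 gene models. The median difference was 0.89 among peaks called higher, which ran from 0.47 to 4.31, and −0.95 among peaks called lower, which ran from −2.75 to −0.51. All 17 peaks with an adjusted p under 0.01 were higher in high glucose. An unadjusted p under 0.05 by limma was found at 1630 of the 10024 peaks, 1004 higher and 626 lower. Counts of peaks at that threshold below are to be read against this share. In each of the 234 peaks the difference had the same sign in 3 of 3 embryos. Over all peaks the difference was positive in all 3 embryos at 2292 (22.9%) and negative in all 3 at 1629 (16.3%). The peaks called higher took 0.838% to 0.881% of a library's tags in F12 and 1.53% to 1.58% in high glucose, and those called lower took 0.558% to 0.566% in F12 and 0.249% to 0.317% in high glucose. These shares are descriptions of peaks that the same values selected.

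**Figure D1:**
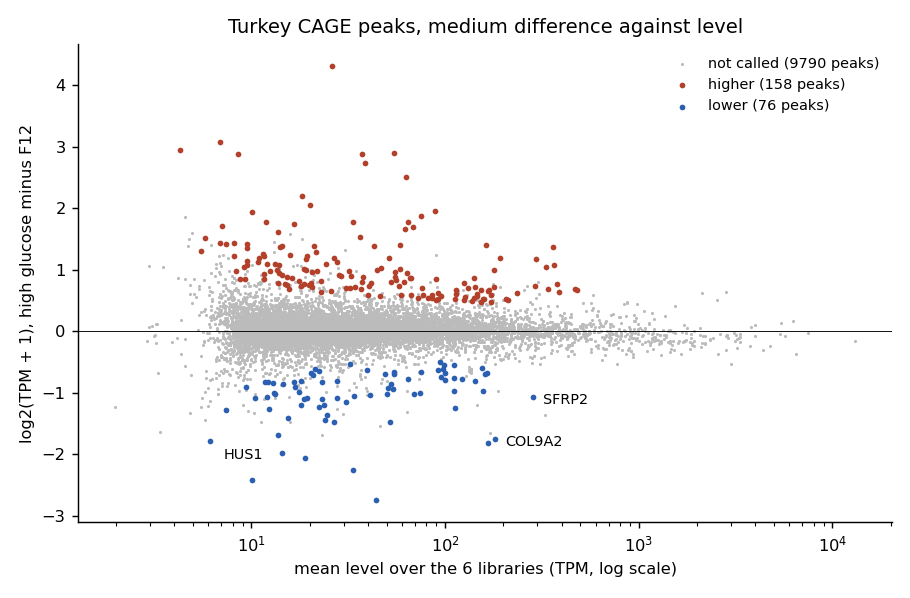
Mean level of each turkey peak over the 6 libraries (TPM, log scale) against its medium difference in log2(TPM + 1), high glucose minus F12. Each point is 1 of 10024 peaks, with the 158 called higher in red, the 76 called lower in blue and 3 named peaks marked. No coloured point lies at or above 500 TPM.

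The number of calls rested on which embryos were used. Without embryo 02 there were 74 peaks called higher and 43 lower, without embryo 03 there were 779 and 539, and without embryo 04 there were 13 and 2. All 234 peaks were also called without embryo 03, while 90 of them were called without embryo 02 and 15 without embryo 04. Without the embryo block 33 peaks were called higher and 9 lower, all of them among the 234. edgeR's quasi-likelihood test on the recovered tags, with the block, called 140 higher and 70 lower, and 203 of these 210 were among the 234.

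The embryos moved by unlike amounts. For embryo 03, the embryo and its high glucose library, the only turkey library marked as a second one, cannot be told apart. The standard deviation of the medium difference over peaks was 0.32 in embryo 02, 0.48 in embryo 03 and 0.33 in embryo 04. In embryo 03, 246 peaks were higher by a log2 of 1 or more and 209 lower, against 101 and 54 in embryo 02 and 105 and 58 in embryo 04. Over 10024 peaks the differences of embryos 02 and 04 had a Pearson correlation of 0.65, those of 02 and 03 of 0.37 and those of 03 and 04 of 0.38. These are correlations across peaks, given as a description, and the pairs compared share no library.

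A change of at least a log2 of 1 in the same direction in all 3 embryos was found at 43 peaks that were higher (0.429% of all peaks) and 17 that were lower (0.17%), and 58 of these 60 were called. This count is a description of size with no test, since an exact sign test over 3 pairs cannot go below a two-sided p of 0.25.

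**Figure D2:**
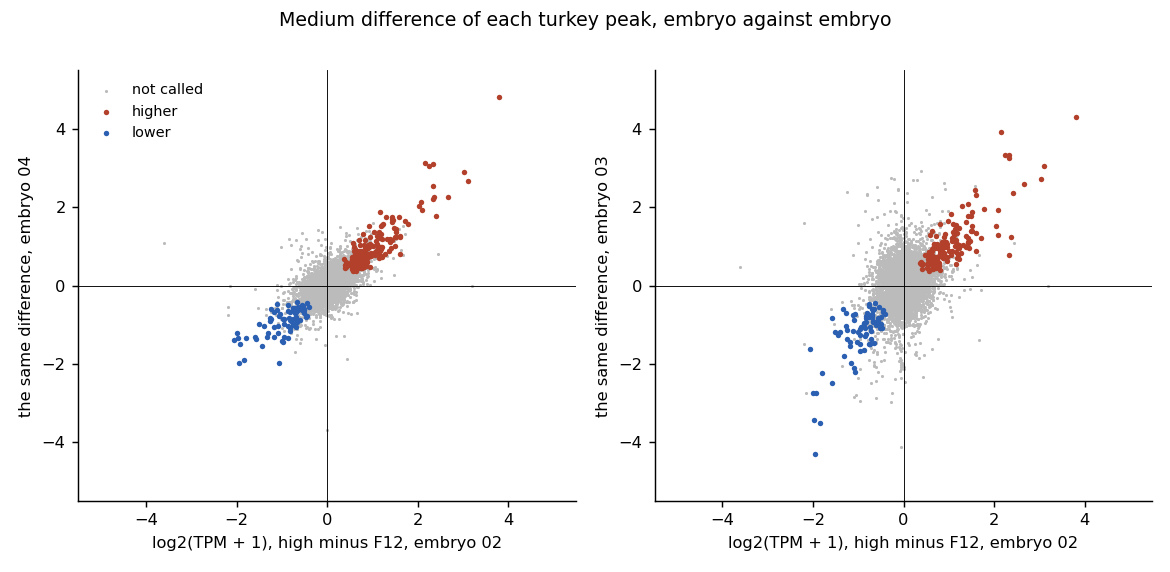
Medium difference of each turkey peak in log2(TPM + 1), high glucose minus F12, in embryo 02 (horizontal) against embryo 04 (left) and embryo 03 (right). Points are 10024 peaks, coloured by call. The cloud of uncalled peaks is taller for embryo 03 than for embryo 04, as the standard deviations of 0.48 and 0.33 give.

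The share of peaks called differed between classes of position, and these differences were not tested. Near gene starts (within 3 kb), 87 of 6924 peaks were called higher and 42 lower, 1.86% in all. Of 1929 intergenic peaks 47 were called higher and 30 lower, 3.99%, and of 1171 peaks inside gene bodies 24 were called higher and 4 lower, 2.39%. Within gene bodies, 2.72% of 847 intron peaks and 1.54% of 324 exon peaks were called. The called intergenic peaks lay at a median distance of 18940 bp from the start of the gene model to which they were assigned, against 15820 bp for all intergenic peaks. The turkey gene models were predicted by the authors, and the gene names below are assignments by proximity on the same strand. The study describes the many distal intergenic peaks in turkey as probably tied to the quality of the gene models. An intergenic peak may thus lie at a gene start that the models lack.

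**Figure D3:**
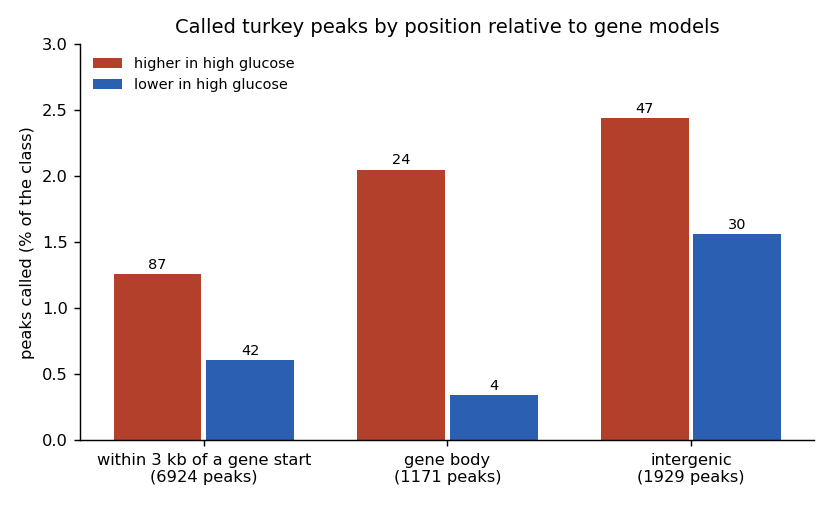
Share of the turkey peaks of each class called higher (red) or lower (blue) in high glucose, in percent of the class, with the number of peaks above each bar. The intergenic class had the largest share in both directions, with 2.44% higher and 1.56% lower.

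Calls also varied with level and chromosome. Of 286 peaks with a mean of 500 TPM or more, limma and edgeR called 0. At an unadjusted p under 0.05 by limma there were 40, against 1630 of all 10024 peaks. The largest absolute difference of the 286 was 0.63. Of 1455 peaks with a mean of 100 to 500 TPM, 3.57% were called. Among chromosomes with a name in the tables used here, 16 of 476 Z peaks were called (12 higher, 4 lower, 3.36%), against 37 of 1272 on chromosome 1 (2.91%) and 10 of 221 on chromosome 9 (4.52%). These shares were not tested against each other.

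Called peaks that lay near each other moved the same way. There were 16 groups of 2 or more called peaks spaced by at most 50 kb, which held 34 peaks, and in each group all peaks had the same direction. Of 1331 gene models with 2 or more peaks, 63 had a called peak, against 225 of all 8206 gene models. A model with more peaks has more chances to hold a called one, so these shares cannot be compared directly. Of the other 163 peaks of these 63 models, 133 had the same sign as the called peak of smallest p. Only 9 of the models had 2 or more peaks called by limma, and in none of these 9 did the calls go in both directions. Peaks of 1 gene can share transcripts, so these are not independent measurements. How often peaks of gene models without a call agree in sign is not given here.

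The 2 peaks of smallest p in each direction among those without a gene name came from unlike places. The first lay in intron 1 of 3 of a gene model, at chr3:81122792-81122844 on the plus strand of MGAL_WU_HG_1.0, the assembly of the deposited turkey table. It had 10.18, 16.16 and 30.16 TPM in F12 in embryos 02, 03 and 04, and 70.03, 102.8 and 149.8 TPM in high glucose. The groups did not overlap, and the difference was 2.51 (standard error 0.11, adjusted p = 0.0041). The share of all peaks without such overlap is not given here, so overlap is only a description, here and below.

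The second peak called higher had the largest difference of all peaks. It was intergenic, on the plus strand at 11954241 to 11954446 of sequence HG999691.1, whose chromosome name is not given in the tables used here. Its level was 4.363, 1.303 and 0.1764 TPM in F12 in embryos 02, 03 and 04, the last of these being 2 tags, and 73.68, 44.59 and 32.56 TPM in high glucose. It was close to silent in F12 in embryo 04 and clearly active in every high glucose culture (difference 4.31, standard error 0.22, adjusted p = 0.0051). Both peaks were also called without any 1 of the embryos.

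On the lower side, a peak at the start of a gene model on the minus strand of chr5:37765799-37766180 had 79.13, 70.46 and 147.7 TPM in F12 and 36.49, 38.07 and 71.25 TPM in high glucose in embryos 02, 03 and 04. The level of embryo 04 in high glucose lay just above that of embryo 03 in F12, so the groups overlapped while each embryo fell (difference −1.003, standard error 0.09, adjusted p = 0.013). An intergenic peak on the minus strand of chrZ:20593987-20594108 had 28.57, 25.71 and 14.2 TPM in F12 and 9.818, 10.18 and 4.239 TPM in high glucose. Its difference was −1.41 (standard error 0.13, adjusted p = 0.013). Neither was called without embryo 04, with adjusted p of 0.0726 and 0.0631, and the chromosome 5 peak was not called with embryo as a random block (adjusted p = 0.0798).

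The following peaks were chosen after their values were seen. A cluster of 3 intergenic peaks on chromosome 1 rose on both strands, with start sites 200 bp apart at most. Its plus strand peak, at chr1:136629543-136630039, had 6.673, 10.95 and 7.584 TPM in F12 and 37.45, 119.5 and 49.51 TPM in high glucose in embryos 02, 03 and 04. The divergent minus strand peak, at chr1:136629442-136629667 and read away from the plus strand peak, had 7.1, 9.382 and 6.085 TPM in F12. It had 37.62, 104.4 and 57.81 TPM in high glucose. The levels of these divergent peaks were close to each other in every library and highest in embryo 03 in high glucose. Their differences were 2.74 and 2.88 (standard errors 0.20 and 0.21, adjusted p = 0.0085 for each). The weaker minus strand peak between them differed by 1.93 (adjusted p = 0.016) and was not called without embryo 04 (adjusted p = 0.0631). Of 710 pairs of divergent peaks at most 500 bp apart, 9 had a called peak, while 2.33% of all single peaks were called. A pair holds 2 peaks that could be called, so these shares cannot be compared directly. Only the 2 pairs of this cluster had both called, and these pairs share the plus strand peak.

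At the start of a gene model on the plus strand of chr6:30704478-30704610, the peak had 0.3422, 0.08688 and 0.1764 TPM in F12, which are 4, 1 and 2 tags, and 10.6, 7.982 and 6.494 TPM in high glucose. It was near 0 in F12 in every embryo (difference 2.94, standard error 0.31, adjusted p = 0.015). A strong start on the plus strand of chr6:7834902-7835481 had 208.9, 161.8 and 277.4 TPM in F12 and 472.8, 319.6 and 550.3 TPM in high glucose (difference 1.05, standard error 0.08, adjusted p = 0.010). On the Z chromosome, a peak in intron 21 of 27 of a gene model, at chrZ:41236778-41236919 on the plus strand, had 190.4, 199.4 and 142.8 TPM in F12 and 410.1, 519.2 and 297.5 TPM in high glucose (difference 1.18, standard error 0.09, adjusted p = 0.010). All 3 of these peaks, picked by their values, had groups that did not overlap, which is a description and no test. The last 2 were not called without embryo 04 (adjusted p = 0.0551 for each).

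The largest fall was at the start of a gene model on the plus strand of chr1:163532628-163532759, with 83.92, 97.39 and 45.59 TPM in F12 and 20.85, 3.945 and 10.82 TPM in high glucose in embryos 02, 03 and 04. Embryo 03 moved by a log2 of −4.31 and the other embryos by −1.96 and −1.98 (mean difference −2.75, standard error 0.46, adjusted p = 0.046). The call was lost under other settings, with an adjusted p of 0.0585 by edgeR, 0.0763 by limma without a mean-variance trend and 0.0861 without embryo 04, and the adjusted p ran from 1.26e-06 to 0.125 over all settings. A peak on the minus strand of chr31:1005719-1006039, 3476 bp past a gene start, had 358, 398.7 and 36.51 TPM in F12 and 119.6, 70.18 and 13.53 TPM in high glucose. Embryo 04 had far lower levels than the male embryos in both media, and each embryo fell (difference −1.81, standard error 0.21, adjusted p = 0.018). This call was lost without embryo 04 (adjusted p = 0.0507), with embryo as a random block (adjusted p = 0.283) and without the block (adjusted p = 0.696).

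**Figure D4:**
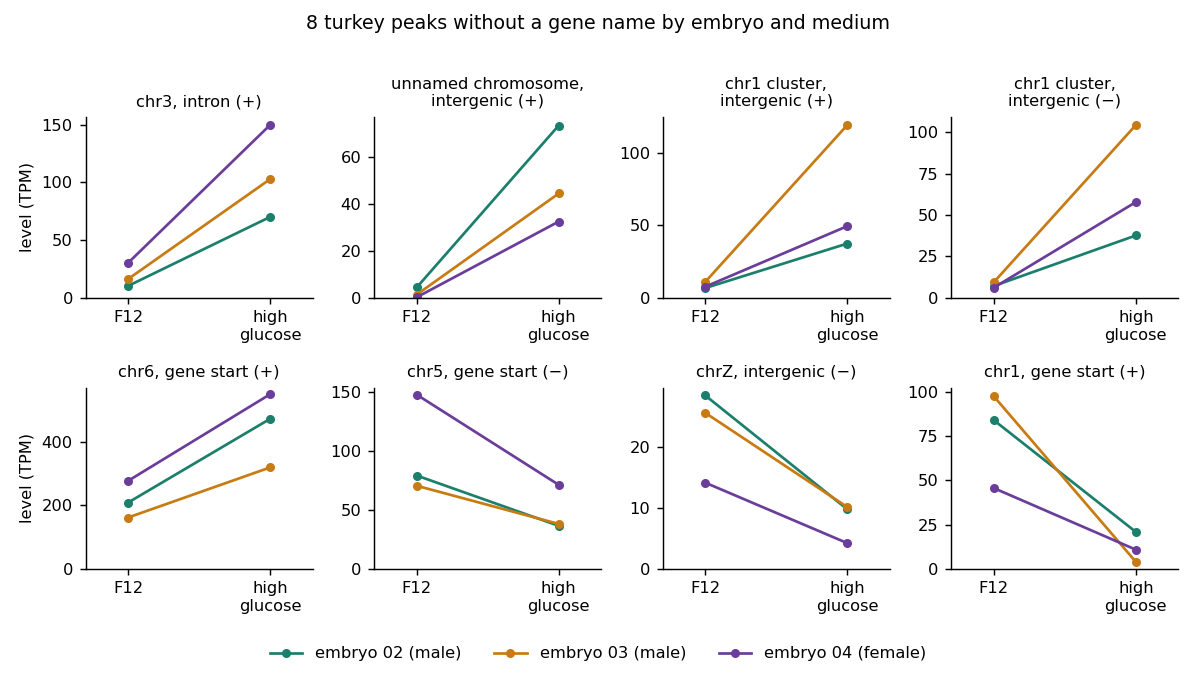
Level in TPM of 8 turkey peaks without a gene name in F12 and in high glucose, with 1 line per embryo and linear axes from 0. The first 5 panels rise and the last 3 fall in every embryo. Their mean log2 differences over the embryos were 1.05 to 4.31 and −2.75 to −1.003.

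Of the turkey gene models, 40 had a chicken gene name in the copy used here of the study's supplementary peak table. That copy is shortened, so 40 is not the number named by the study, and the table was made for a comparison of the sexes and not of the media. They had 70 peaks, of which 0 were called higher and 3 lower, against 1.58% and 0.758% of all peaks, and edgeR called 4 of the 70. At an unadjusted p under 0.05, 4 of the 70 were higher and 11 lower, against 1004 and 626 of all 10024 peaks. Of the 70 peaks, 14 were lower and 8 higher in all 3 embryos, and their median difference was −0.0046, against 0.02 for all peaks.

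The 3 named genes of cartilage collagen IX, whose chains COL9A1, COL9A2 and COL9A3 form a collagen that coats the fibrils of cartilage, had differences of −1.75 to −1.54, and 1 of them passed the test. The COL9A2 peak lay between genes at −5468 bp from the start of its model, on the minus strand of chr25:4890960-4891084. It had 319.7, 355.3 and 144.4 TPM in F12 and 152.5, 75.96 and 35.9 TPM in high glucose in embryos 02, 03 and 04. Each embryo fell, and the groups overlapped only in that embryo 02 in high glucose stood above embryo 04 in F12. The mean was 3.10-fold higher in F12, and the difference was −1.75 (standard error 0.22, adjusted p = 0.020). The call was lost without embryo 04 (adjusted p = 0.087), with embryo as a random block (adjusted p = 0.0718) and without the block (adjusted p = 0.292), and the adjusted p was 0.000199 at the lowest, without embryo 03.

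COL9A3, measured at its gene start on the plus strand of chr22:8526473-8526922, had 89.31, 100.8 and 18.7 TPM in F12 and 42.83, 13.76 and 10.28 TPM in high glucose. It was lower in 3 of 3 embryos but was not called (difference −1.54, standard error 0.37, adjusted p = 0.111). It was called without embryo 03, where the difference was −0.92. With another embryo left out its adjusted p rose to 0.135. The COL9A1 peak lay in a gene body on the plus strand of chr2:82018275-82018355 and had 11.12, 6.95 and 0.08819 TPM in F12 and 1.738, 0.1835 and 0.09019 TPM in high glucose. In embryo 04 it was at 1 tag in each medium, so that its difference of −1.63 (standard error 0.60, adjusted p = 0.253) came from the male embryos. Of the 3 cartilage peaks 1 was called lower, against 0.758% of all peaks, and their median difference was −1.63, against 0.02 for all peaks.

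Collagen IX is also a marker of chondrocytes, which a trunk culture could hold. The summed level of the 3 genes was 420.1, 463 and 163.2 TPM in F12 and 197.1, 89.91 and 46.27 TPM in high glucose in embryos 02, 03 and 04. It was thus lower in high glucose in every embryo. COL9A2, already called lower from the same values, made up most of the sum in each library, so the sum adds no separate evidence. The other cartilage markers considered (COL2A1, ACAN and MATN1) carry no name in the turkey tables used here. Fewer cells of a type and less RNA per cell cannot be told apart in these bulk cultures, and the part of chondrocytes in the other results was not tested.

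SFRP2, a secreted inhibitor of Wnt signalling made by fibroblasts, was also called lower. At its gene start, on the minus strand of chr4:445999-446640, it had 198.8, 298.6 and 619.3 TPM in F12 and 96.53, 108.9 and 377.2 TPM in high glucose. The female embryo had the highest level in each medium, so that the groups overlapped while each embryo fell (difference −1.07, standard error 0.14, adjusted p = 0.026). The call was lost without embryo 04 (adjusted p = 0.0551), with embryo as a random block (adjusted p = 0.252) and without the block (adjusted p = 0.657), and the adjusted p was 9.91e-05 at the lowest, without embryo 03.

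The other named genes of fibroblast matrix and secreted factors were not called. In all, 1 of the 11 peaks of this list was called, lower, against 0.758% of all peaks called lower. The 11 peaks came from 4 genes and most were of THBS1, so they are not independent measurements. ASPN, which encodes the small proteoglycan asporin, had 38.84, 43 and 128 TPM in F12 and 36.75, 24.13 and 99.39 TPM in high glucose (difference −0.42, adjusted p = 0.234). THBS1, the matrix glycoprotein thrombospondin, had 2469, 2928 and 1390 TPM at its gene start in F12 and 1890, 2964 and 1526 TPM in high glucose (difference −0.08, adjusted p = 0.830). C1QTNF3, a secreted protein of the C1q and TNF related family, had a difference of 0.03 (adjusted p = 0.969). Its embryos went apart, by 0.59, −0.47 and −0.05.

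A peak on the minus strand of chrZ:46142188-46142447 was assigned to HUS1, a subunit of a clamp that senses DNA damage, but lay 12650 bp from the start of the gene model and outside its body. It had 34.39, 32.66 and 5.468 TPM in F12 and 7.82, 4.037 and 1.804 TPM in high glucose. The male embryos had the higher levels in F12, and every embryo fell (difference −1.98, standard error 0.29, adjusted p = 0.035). The call was lost without embryo 02 (adjusted p = 0.0536), with a pseudocount of 5 (adjusted p = 0.0592), with embryo as a random block (adjusted p = 0.104) and without the block (adjusted p = 0.383), and the adjusted p was 0.000862 at the lowest, without embryo 03. A peak assigned to EDKM, at the plus strand of chr27:1191371-1191431 within the body of another model, had 24.55, 18.85 and 1.411 TPM in F12 and 7.82, 9.083 and 0.6313 TPM in high glucose. It was not called by limma (difference −1.03, standard error 0.23, adjusted p = 0.094) and was called by edgeR (adjusted p = 0.0345).

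Cells short of amino acids or under stress in the endoplasmic reticulum raise a set of genes through the transcription factors ATF4 and CHOP. Of 25 such genes considered, 5 had a name in turkey, with 7 peaks. Limma and edgeR called 0 of the 7. By limma, 3 were at an unadjusted p under 0.05, all lower in high glucose, against 626 lower of all 10024 peaks. In all 3 embryos 4 peaks were lower, against 16.3% of all peaks. The median difference was −0.24, against 0.02 for all peaks.

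CHAC1, an enzyme that degrades glutathione, had 234.6, 244.2 and 84.58 TPM in F12 and 193.4, 150.6 and 57.45 TPM in high glucose in embryos 02, 03 and 04 (difference −0.51, standard error 0.10, adjusted p = 0.075). It was called without embryo 03, where the difference was −0.41 (adjusted p = 0.0084). With another embryo left out its adjusted p rose to 0.345. SLC7A11, the cystine transporter that feeds glutathione synthesis, had 90.59, 93.22 and 25.75 TPM in F12 and 74.02, 77.89 and 22.55 TPM in high glucose (difference −0.24, standard error 0.08, adjusted p = 0.220). DDIT3, which encodes CHOP, had 187, 287.3 and 98.86 TPM in F12 and 181.9, 205.6 and 70.35 TPM in high glucose (difference −0.34, standard error 0.11, adjusted p = 0.220). These 3 genes were lower in high glucose in each embryo, by amounts that did not pass the test.

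The other members were not called. MTHFD2, a mitochondrial enzyme of one-carbon metabolism, had 132.8, 138.5 and 75.23 TPM at its start in F12 and 121.4, 138 and 61.15 TPM in high glucose (difference −0.14, adjusted p = 0.516). Its stronger peak, at −7345 bp, differed by 0.05 (adjusted p = 0.837). Its peak at −7488 bp was seen in 1 library alone, with 11.91 TPM in F12 in embryo 04 and 0 in the other libraries, and had the lowest difference of the list (−1.23, standard error 0.91, adjusted p = 0.583). GDF15, a secreted stress cytokine, had 0.5988, 7.384 and 0.1764 TPM in F12 and 0.5213, 10.37 and 0.1804 TPM in high glucose, and was thus seen mainly in embryo 03 (difference 0.12, adjusted p = 0.911).

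**Figure D5:**
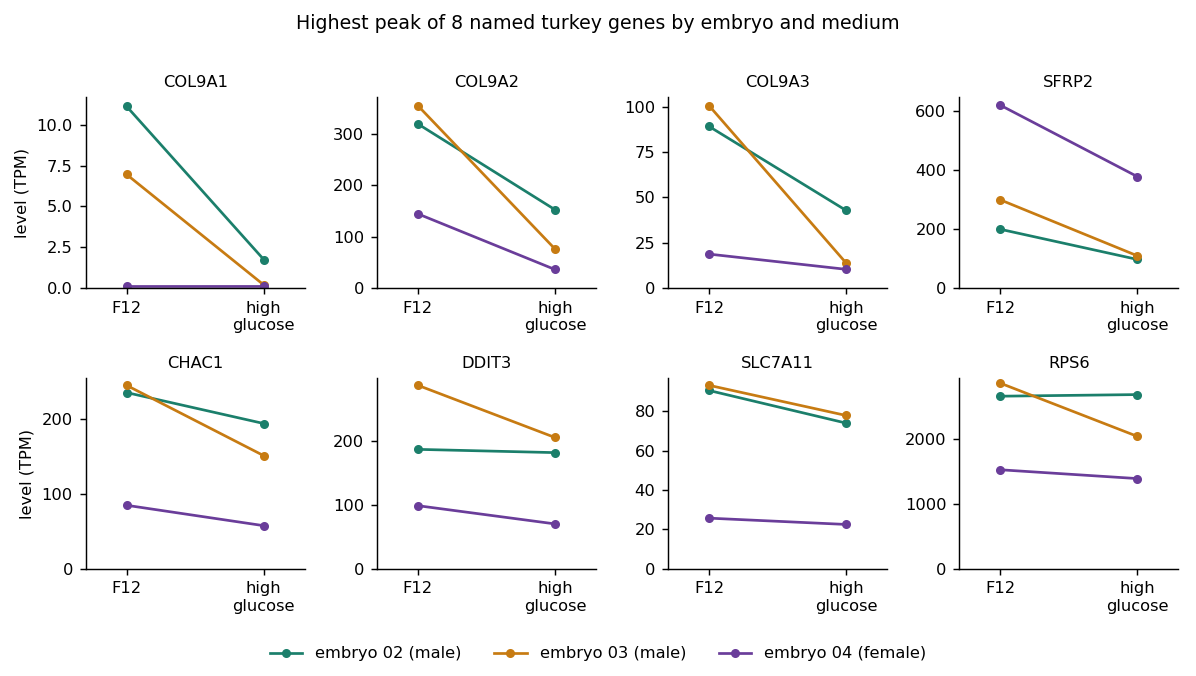
Level in TPM of the highest peak of 8 named turkey genes in F12 and in high glucose, with 1 line per embryo and linear axes from 0. COL9A2 and SFRP2, called lower, fall in every embryo, while CHAC1, DDIT3 and SLC7A11 fall by smaller amounts that were not called and RPS6 falls in 2 of the 3 embryos.

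RPS6, a protein of the small ribosomal subunit encoded on the Z chromosome, was among the highest of the named genes. Its main peak, at chrZ:33771884-33772060 on the minus strand, had 2666, 2868 and 1530 TPM in F12 and 2691, 2046 and 1394 TPM in high glucose. Embryo 02 did not fall, and the medium difference of −0.20 (standard error 0.12, adjusted p = 0.507) came mostly from embryo 03, without which it was −0.06. The weaker RPS6 peaks 1965 bp and 2695 bp past the start differed by −0.26 (adjusted p = 0.272) and −0.17 (adjusted p = 0.703). RPL17, of the large subunit and also on the Z chromosome, had 836.5, 812.1 and 432.7 TPM at its start in F12 and 883.4, 868.9 and 437.2 TPM in high glucose (difference 0.06, adjusted p = 0.770). Limma and edgeR called 0 of the 9 ribosomal protein peaks, which came from 3 genes. By limma, 1 had an unadjusted p under 0.05, against 1630 of all 10024 peaks.

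EIF5B, a translation initiation factor that joins the ribosomal subunits, had peaks at its start and within its body that moved in opposite directions in embryo 03. At the start the level was 172.8, 154.5 and 153.3 TPM in F12 and 166.5, 265.5 and 147.9 TPM in high glucose, and at the peak 7730 bp past it 477.1, 608.6 and 175.7 TPM in F12 and 531.6, 396.9 and 196.1 TPM in high glucose. Neither was called (differences 0.22 and −0.10, adjusted p = 0.613 and 0.830). EIF2S1, the alpha subunit of initiation factor eIF2, differed by −0.07 (adjusted p = 0.842). Limma and edgeR called 0 of 11 peaks of the initiation factors, with 0 at an unadjusted p under 0.05, against 1630 of all 10024. These peaks came from 2 genes and most were of EIF5B, so they are not independent measurements.

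Of the 3 named genes of lipid and mitochondrial metabolism, 2 were higher in high glucose in every embryo, and none was called by limma or edgeR. PPM1K, a mitochondrial phosphatase that promotes breakdown of branched-chain amino acids, had 29, 37.01 and 8.555 TPM in F12 and 51.44, 39.91 and 14.7 TPM in high glucose (difference 0.54, standard error 0.16, adjusted p = 0.156). A peak assigned to PPARG, the transcription factor of fat cell formation and an adipocyte marker, lay at −30129 bp and had 31.99, 31.19 and 6.438 TPM in F12 and 49, 36.51 and 8.838 TPM in high glucose (difference 0.41, standard error 0.11, adjusted p = 0.1503). Both were higher in 3 of 3 embryos and both were called without embryo 03 (adjusted p = 0.0012 and 0.0186). In that setting 779 of all peaks were called higher and 539 lower. With another embryo left out the adjusted p rose to 0.585 for PPM1K and 0.705 for PPARG. NDUFS4, a subunit of respiratory complex I, differed by 0.03 (adjusted p = 0.897), with embryo 03 lower and the others higher. Limma and edgeR called 0 of the 3 peaks, with 2 at an unadjusted p under 0.05, against 1630 of all 10024 peaks.

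For the remaining lists the values were as follows. The chaperone genes had 0 of 4 peaks called by limma or edgeR, with 1 at an unadjusted p under 0.05, against 1630 of all 10024. HSPB9, a small heat shock protein, went apart between embryos, with 10.69, 3.388 and 1.587 TPM in F12 and 3.91, 21.93 and 0.6313 TPM in high glucose (difference 0.16, adjusted p = 0.942), and CCT8, a subunit of the cytosolic chaperonin, differed by 0.11 (adjusted p = 0.739). GLOD4, of the glyoxalase domain family, was higher in 3 of 3 embryos (difference 0.23, adjusted p = 0.349), and the stronger peak assigned to GSTAL1, of the glutathione S-transferase alpha family, differed by 0.41 (adjusted p = 0.392), with embryo 03 going from 57.51 to 120.6 TPM. Of the 5 peaks of the glutathione and detoxification list limma and edgeR called 0. The 2 at an unadjusted p under 0.05 were those of CHAC1 and SLC7A11, described above, both lower in high glucose. VEGFA, a hypoxia-induced growth factor of blood vessels and the only named gene of 11 considered for hypoxia and glycolysis, had 0 of 2 peaks called by limma or edgeR, 0 at an unadjusted p under 0.05, and a difference of 0.04 at its stronger peak (adjusted p = 0.882). BF1, a class I molecule of the major histocompatibility complex, had the highest difference among named peaks, 0.66, with 10.09, 32.93 and 3.616 TPM in F12 and 9.557, 82.57 and 6.764 TPM in high glucose (standard error 0.26, adjusted p = 0.279). Such genes have near-identical copies, and reads may be split among them, so this value is uncertain.

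The same genes were set beside chicken, quail and duck, of which 3 embryos each were also grown in both media and whose tables carry gene names. By the labels, most embryos were female in chicken and quail and male in turkey and duck. Turkey thus also differs from chicken and quail in the mix of sexes, which cannot be told apart from species. Peaks of a gene were summed, and the medium differences of 3 turkey embryos were compared with those of 3 embryos of the other species by a two-sided exact permutation test, which cannot go below p = 0.1 at this size. The comparison cannot pass the threshold and is a description. The tables were normalized separately and hold different peak classes, and only differences within an embryo were compared. There were 23 comparisons, 14 of amino acid stress genes and 9 of matrix genes that were added after the turkey values were seen, and adjusted p-values over the 23 ran from 0.329 to 1.

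SFRP2 differed by −1.07 ± 0.37 (SD, n = 3) in turkey, −0.04 ± 0.27 in chicken, −0.63 ± 2.26 in quail and 0.05 ± 0.41 in duck. Turkey minus chicken was −1.03 and turkey minus duck −1.11 on the log2 scale, each with exact p = 0.1, the smallest possible, and an adjusted p of 0.329. COL9A2 differed by −1.75 ± 0.61 in turkey, −0.85 ± 0.61 in chicken, where it had 14.18, 2.694 and 2.942 TPM in F12, and 0.12 ± 0.48 in duck (turkey against duck exact p = 0.1, adjusted p = 0.329). COL9A1 differed by −1.63 ± 1.45 in turkey and −0.70 ± 1.08 in duck, where 2 of 3 embryos were lower (exact p = 0.4, adjusted p = 0.613). ASPN differed by −0.42 ± 0.37 in turkey, −0.65 ± 0.40 in chicken, −1.18 ± 0.78 in quail and 0.01 ± 0.09 in duck. For ASPN, turkey lay above chicken and quail and below duck.

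Among the stress genes, CHAC1 differed by −0.51 ± 0.21 in turkey, 0.57 ± 2.06 in chicken, 0.96 ± 1.61 in quail and −0.04 ± 0.30 in duck (SD, n = 3). The spread between chicken embryos was far larger than in turkey, since 1 of them went from 16.69 to 133.2 TPM and the other embryos fell. DDIT3 differed by −0.34 ± 0.26 in turkey, 0.24 ± 1.37 in chicken and 0.30 ± 0.17 in duck. SLC7A11 differed by −0.24 ± 0.05 in turkey, 0.34 ± 0.28 in chicken, 0.88 ± 0.91 in quail and −0.15 ± 0.56 in duck. MTHFD2 and GDF15 differed by −0.03 ± 0.10 and 0.12 ± 0.28 in turkey, with means between −0.13 and 0.72 in the other species.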

How the data were processed

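By the study's methods, the authors trimmed CAGE reads, removed adapter and ribosomal reads, aligned them with BWA (0.7.10-r789 per the labels) and HISAT2 (2.1.0) to the turkey assembly MGAL_WU_HG_1.0, grouped 5′ ends into peaks reaching 10 TPM in at least 1 library, and assigned peaks to predicted gene models on the same strand with ChIPseeker (1.32.0). The deposited values are tags scaled to the library total (TPM, a form of RPM). All 10024 deposited peaks reached 10 TPM in a library. The authors' classification of peaks as promoters or not was not applied here. No read, genome or protein sequence was used.

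TPM values were tested with limma 3.58.1 (R 4.3.3) on log2(TPM + 1) with a mean-variance trend, embryo as a fixed block and Benjamini-Hochberg adjustment over all peaks. All values (100%) gave whole tags, to a tolerance of 0.05 tag, and edgeR 4.0.16 was run on these as an alternative with TMM or DESeq2-type size factors. A tag count of a single library gives no spread between cultures, while standard errors and SDs are taken over embryos. Pairing comes from the embryo numbers in the titles. Deviations from the medium means correlated over peaks by 0.532, 0.368 and 0.693 within the pairs of embryos 02, 03 and 04. Between embryos they correlated by −0.473 to 0.00394. Deviations from a shared mean cancel within a medium, so the lower values between embryos are partly built in. Plain Pearson correlations of log2 levels were highest within the pair for embryos 02 (0.9803) and 04 (0.9795). The F12 library of embryo 03 correlated more with the high glucose library of embryo 02 (0.9685) than with its own (0.9552). The high glucose library of embryo 03, marked as a second one, correlated most with its own F12 library. The limma p-values and standard errors do not rest on the spread among these 3 pairs alone. A peak has 2 residual degrees of freedom, and limma moderates its variance toward the trend over all peaks. Scripts were tested on simulated data.

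Named were all peaks of gene models with a chicken symbol in a shortened copy of the study's supplementary table, the 2 peaks of smallest p in each direction among the others, and RPS6. The members, lists and tests were chosen with earlier results of these data known. Alternatives were no block, a random block, pseudocounts of 0.1 and 5, a mean of at least 10 TPM, peaks within 3 kb of a gene start, median and TMM scaling, both edgeR fits, limma without the trend, an adjusted p under 0.1 and leaving out each embryo. Leaving out unplaced sequences and adding matrix genes to the species comparison were chosen after seeing the data. Turkey RNA-seq, made in 1 medium, was not used, and the authors' own tests of the media were not used.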

Additional observations from a re-analysis of the deposited data

Results flagged for a closer look

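In 3 comparisons of turkey with another bird, every turkey embryo moved 1 way with the medium and every embryo of the other species the opposite way. SLC7A11 was lower in high glucose in 3 of 3 turkey embryos, by −0.29, −0.26 and −0.18 on the log2 scale, and higher in 3 of 3 chicken embryos, by 0.41, 0.58 and 0.03. The turkey mean lay −0.58 from the chicken mean (two-sided exact permutation p = 0.1, adjusted p = 0.329 over 23 comparisons). In quail SLC7A11 was higher in 3 of 3 embryos, by 0.12, 1.89 and 0.63, and the turkey mean lay −1.12 from the quail mean (exact permutation p = 0.1, adjusted p = 0.329). DDIT3 was lower in 3 of 3 turkey embryos, by −0.04, −0.48 and −0.49, and higher in 3 of 3 duck embryos, by 0.39, 0.11 and 0.40, and the turkey mean lay −0.63 from the duck mean (exact permutation p = 0.1, adjusted p = 0.329). In chicken, DDIT3 went apart between embryos, by −1.08, 1.66 and 0.13 (turkey against chicken exact permutation p = 0.6, adjusted p = 0.805). SLC7A11 went apart between duck embryos, by −0.79, 0.20 and 0.15. Both SLC7A11 comparisons above use the same turkey values, and how often other genes show such opposite signs is not given here. A p of 0.1 is the smallest that 3 embryos against 3 can give, so none of these differences passes the threshold. Neither gene was called in turkey.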

How the results depend on the processing

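The direction of every called peak named above held under all settings run, while the number of calls depended on the embryos and the block. Without the replicate block 33 peaks were called higher and 9 lower, and an adjusted p under 0.1 gave 321 and 183. Peaks within 3 kb of a gene start, fitted alone, gave 75 and 37 calls, against 87 and 42 for the same peaks in the main fit. Leaving out 1 embryo gave 13 to 779 calls higher and 2 to 539 lower. With the random block, other pseudocounts, scalings, the filter on the mean, both edgeR fits, limma without the trend or chromosome sequences only, there were 126 to 176 and 60 to 81. Like counts did not mean the same peaks. Of the 234 peaks of the main fit, 176 were called with the random block and 161 by limma without the trend. Of the 15 described peaks without a gene name, 11 were not called without the block (adjusted p = 0.0654 to 0.696).

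Peaks moved by a log2 of 1 in all embryos numbered 21 higher and 10 lower with a pseudocount of 5, 17 and 7 within 3 kb of a gene start, and 55 to 71 and 20 to 36 with 1 embryo left out, where 2 embryos had to agree. At a log2 of 0.5 there were 167 and 112.

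Among uncalled peaks, leaving out 1 embryo turned the sign of a difference that ran from −0.184 to 0.0762 for THBS1, −0.258 to 0.272 for C1QTNF3, −0.233 to 0.0574 for EIF2S1, −0.0298 to 0.162 for VEGFA, −0.0334 to 0.222 for GDF15 and −0.344 to 0.0459 for the RPS6 peak at 2695 bp. It ran from −0.0523 to 0.363 at the start of EIF5B and −0.23 to 0.157 at its peak at 7730 bp, −0.0329 to 0.206 for CCT8, −0.959 to 0.86 for HSPB9 and −0.0225 to 0.0897 for NDUFS4. C1QTNF3 was at −0.000167 by edgeR with DESeq2-type size factors. The cause of these changes was not tested. Summing peaks or taking the highest peak of a gene kept the sign in all 23 species comparisons. With 3 pairs and 2 residual degrees of freedom per peak, a peak that was not called is not shown to be unaffected.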

Other observations

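Chosen after their values were seen, further called peaks without a gene name had high levels. A group on chromosome 2 rose at peaks spaced by 38397 bp. Its peak on the minus strand of chr2:45137209-45137646 had 176.7, 289.8 and 153.2 TPM in F12 and 483.9, 565 and 495.1 TPM in high glucose in embryos 02, 03 and 04 (difference 1.37, standard error 0.14, adjusted p = 0.015 from limma). All high glucose cultures lay above all F12 cultures, and the call was lost without embryo 04 (adjusted p = 0.0631).

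On chromosome 1, 3 called peaks on both strands within 12634 bp rose together. The peak at chr1:50537593-50537838, 249 bp past a gene start on the plus strand, had 23.78, 25.54 and 37.48 TPM in F12 and 84.36, 102.4 and 113.7 TPM in high glucose (difference 1.77, standard error 0.10, adjusted p = 0.0060 from limma). It was called with any 1 embryo left out. In the opposite direction, a gene start on the plus strand of chr1:163778447-163778712 had 210.5, 188.3 and 226 TPM in F12 and 118.7, 97.52 and 100.1 TPM in high glucose (difference −0.98, standard error 0.10, adjusted p = 0.015). The cultures of each medium were close to each other at this start, and the groups did not overlap. The call was lost without embryo 04 (adjusted p = 0.0722).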
